A study of Mus musculus with 12 samples.

Results

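The lysosome and autophagy genes described here are a set of 43 mouse genes chosen by name for their known roles, with earlier results of these data known. All 43 were found in the deposited table, out of 13465 genes, and all 43 passed the filter on low values. The set holds 8 cathepsins and other peptidases, 11 glycosidases, 4 sulfatases, 9 lipid hydrolases, activators and sterol carriers, 6 membrane proteins, 2 transcription factors, and 3 autophagy receptor or ATG8 proteins.

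Lysosomes are acidic vesicles in which hydrolases break down proteins, sugar chains, sulfated glycans and lipids that arrive by endocytosis or by autophagy. Most of these hydrolases carry a mannose 6-phosphate tag that routes them to the lysosome, a proton pump (the V-ATPase) keeps the lumen acidic, and membrane proteins such as LAMP1 and LAMP2 line it. In autophagy, receptors such as SQSTM1 bind cargo and ATG8 proteins (the LC3 and GABARAP families) that coat the forming autophagosome. TFEB and TFE3 are transcription factors that switch on many lysosomal genes, and the kinase complex mTORC1 holds them in the cytoplasm when nutrients are plentiful. In the kidney, proximal tubule cells take up filtered proteins by endocytosis and degrade them in lysosomes.

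RNA was sequenced from kidney of mice labelled WT or CKO, where CKO stands for a knockout of Gpx3 restricted to tubular epithelial cells, and the design text places the tissue in the renal cortex. Mice had either bilateral renal ischemia for 30 min with 48 h of reperfusion (ischemia-reperfusion injury, IRI) or a sham treatment, so that the 4 groups were CKO IRI, WT IRI, CKO sham and WT sham, with 3 libraries each. The aim stated by the submitters was to learn how GPX3 affects renal function. The sources used here do not give the Cre driver, the deleted stretch of Gpx3, strain, sex or age. They also do not say that libraries came from separate mice, and each p-value therefore reflects only how far these libraries spread. IRI libraries keep the numbers of their labels (CKO IRI 7, 15 and 29, and WT IRI 13, 24 and 49). The extraction protocol in the labels speaks of joint capsule. Of 8 joint tissue genes on a marker list 2 were in the table, and their summed level was at most 4.69 FPKM in any library, whereas the summed level of 15 proximal tubule genes was at least 2552 FPKM.

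Values are FPKM (fragments per kilobase of transcript, scaled to the library's mapped fragments), a scale per transcript length on which levels of different genes can be set side by side. Changes are log2 differences on the scale log2(FPKM + 1), tested by limma across all 12469 genes that passed the filter, and "rose" or "fell" is written of genes with a Benjamini-Hochberg adjusted p under 0.05. Summed FPKM per library lay between 391002 and 422328, and the number of reads is unknown. Gpx3, the targeted gene, was at 3723, 3025 and 2779 FPKM in CKO IRI libraries, 2788, 3568 and 1075 in WT IRI, 2501, 3037 and 3299 in CKO sham, and 5664, 4476 and 5371 in WT sham. The 2 sham groups did not overlap (log2 difference -0.81, SE 0.36, adjusted p = 0.755, with an exact permutation p of 0.10, the lowest possible with 3 libraries a group). The 2 IRI groups overlapped (0.52, SE 0.36, adjusted p = 0.421), so Gpx3 does not check the genotype labels there, and CKO IRI and WT IRI mean the libraries labelled so. CKO sham 1 was the lowest of the 6 sham libraries for 28 of the 43 genes, against 30.5% of all tested genes. WT IRI 13 was the lowest of the 6 IRI libraries for 22 of the 43, against 26.5% of all tested genes.

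The promoters are shown because a short palindrome, the E-box, is the core of the element that TFEB and TFE3 bind (the CLEAR element) in many lysosomal genes. In RefSeq promoter windows of build GRCm38.p6, from 250 bases before to 50 bases after the start site, 39 of the 43 genes had an entry. The letters CACGTG, which read the same on both strands, stood in 12 of these 39 (30.8%), against 8.09% of 27025 genes with a window. The longer forms overlap the shorter ones: TCACGTG on either strand stood in 11 of 39 (28.2%, against 4.29% of all), and TCACGTGA in 5 (12.8%, against 1.12%). A match describes the letters of the window and not the binding of a factor. The stretches below come from 2 genes that rose in WT IRI against WT sham (Ctsd and Gla), 2 that fell (Gaa and Mcoln1), and Lamp1, which has the most copies. Each reads 5′ to 3′ on the gene's strand with CACGTG in capitals and ends before the first base of the gene in RefSeq and in GENCODE. Further copies inside the annotated Ctsd and Mcoln1 genes are not printed.
Ctsd, chr7:142388047-142388077, minus strand: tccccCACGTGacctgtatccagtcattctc
Gla, chrX:134601174-134601252, minus strand: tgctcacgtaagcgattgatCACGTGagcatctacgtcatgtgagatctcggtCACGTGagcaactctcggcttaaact
Gaa, chr11:119267803-119267848, plus strand: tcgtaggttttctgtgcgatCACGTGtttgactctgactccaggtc
Mcoln1, chr8:3500428-3500456, plus strand: ttagaaagggtcgcgcttgtCACGTGttc
Lamp1, chr8:13159080-13159160, plus strand: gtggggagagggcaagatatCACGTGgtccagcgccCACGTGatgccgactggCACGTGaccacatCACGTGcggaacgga

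Genes with the E-box letters were called in both directions after injury, and most of them were not called. Among genes with a window, the letters stood in 2 of the 7 that rose in WT IRI, in 2 of the 14 that fell, and in 8 of the 18 that did not pass the test. None of the calls held with every library left out in turn. Of 12 such fits, Ctsd was called in 9, Gla in 7, Gaa in 9 and Mcoln1 in 8. The map of E-box positions shows 4 copies in Lamp1, 2 in Ctsa, Ctsd, Gla, Mcoln1 and Cln3, and 1 in each of the others.

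**Figure D1:**
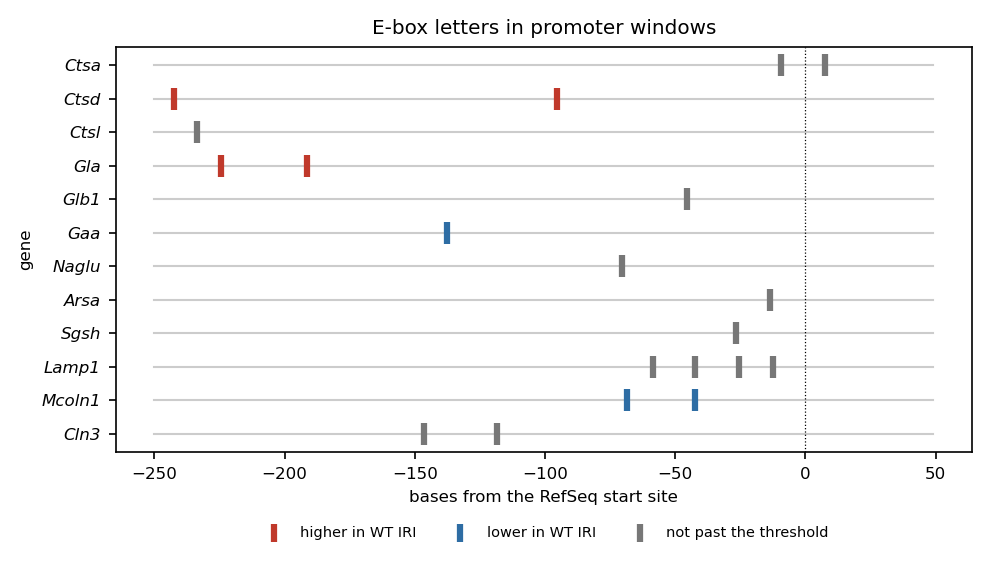
Position of the letters CACGTG (vertical marks) in the promoter windows of the 12 genes that hold them, in bases from the RefSeq start site, coloured by the call in WT IRI against WT sham. Marks of genes that rose, of genes that fell and of genes not past the threshold lie in the same windows, and Lamp1 holds 4.

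In uninjured WT kidneys, levels spanned a wide range. The tetraspanin Cd63 was highest at 617 ± 34.6 FPKM in WT sham (SD, n = 3), followed by Lamp1 at 551 ± 5.71, Psap at 513 ± 7.67 and Gabarapl1 at 341 ± 8.97, each without overlap with its neighbour. In all, 13 genes averaged above 100 FPKM and 8 below 10 FPKM. At the low end, Gla averaged 2.42 ± 0.181, Arsa 2.34 ± 0.431 and Idua 1.74 ± 1.13 FPKM (SD, n = 3 each), and the libraries of these neighbours overlapped. Together the 43 genes held 1.17%, 1.01% and 1.07% of the summed FPKM in CKO IRI, 0.949%, 1.04% and 1.04% in WT IRI, 0.904%, 1.12% and 1.12% in CKO sham, and 1.15%, 1.16% and 1.17% in WT sham. The share was thus highest and tightest in WT sham, apart from CKO IRI 7, which lay within the WT sham range. The median gene's SD on the log2 scale was also lowest in WT sham. This SD was 0.25 in CKO IRI, 0.31 in WT IRI, 0.19 in CKO sham and 0.07 in WT sham, beside 0.23, 0.27, 0.17 and 0.10 over all tested genes.

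**Figure D2:**
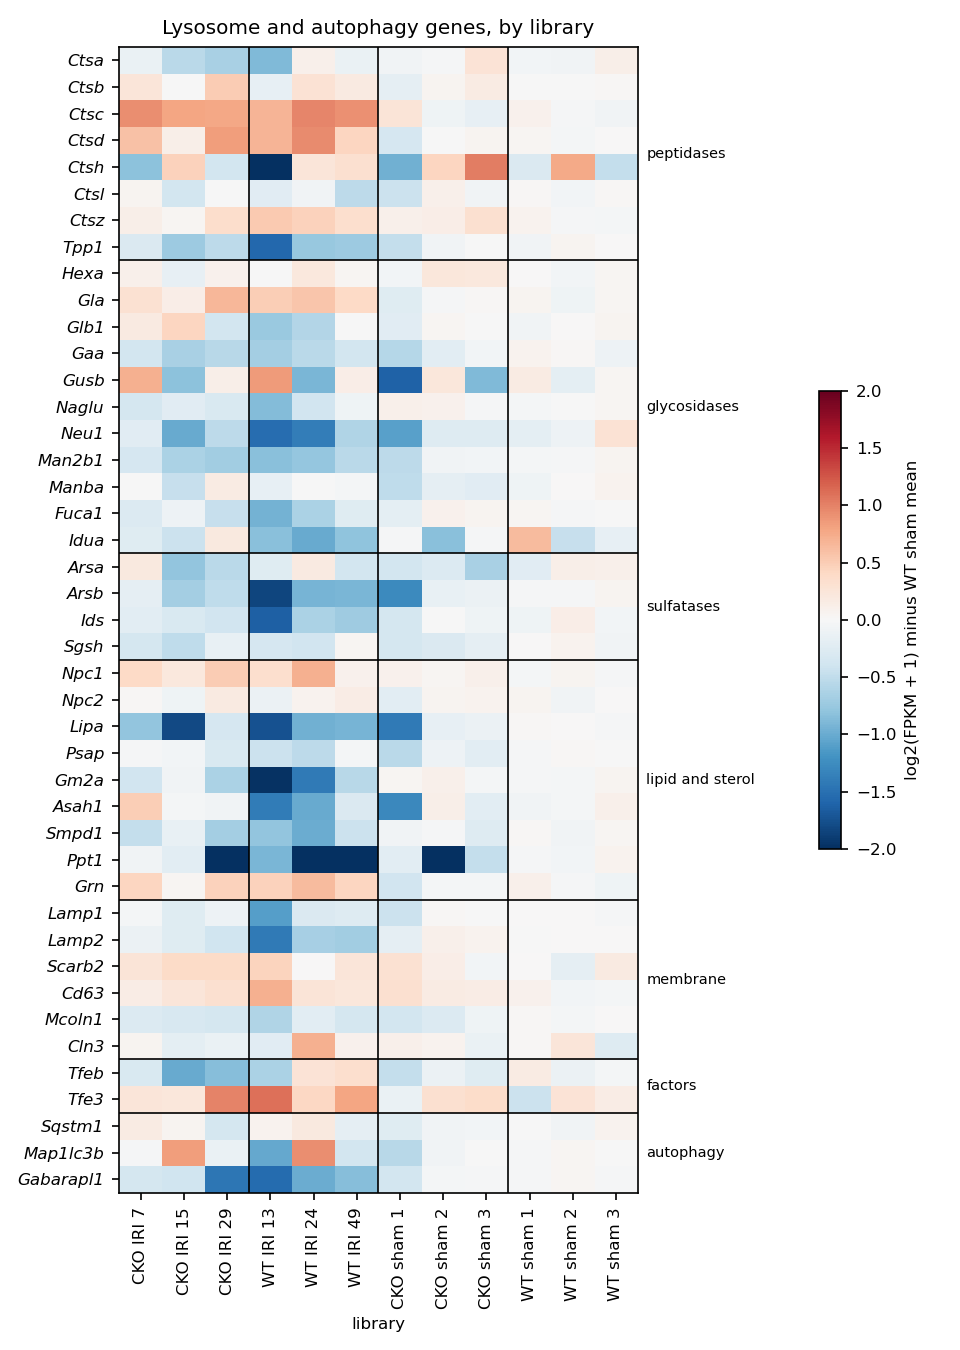
Level of each of the 43 genes (rows, grouped by role) in each of the 12 libraries (columns), as log2(FPKM + 1) minus the WT sham mean, with red above and blue below that mean and colours capped at 2 in either direction. WT IRI 13 and CKO sham 1 are the bluest columns of their groups, and the row of Ppt1 changes from library to library within groups.

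The response to injury in WT kidneys split the lysosomal genes, with more falling than rising. Of the 43 genes, 7 rose in WT IRI against WT sham (16.3%, where 25.1% of all 12469 tested genes rose) and 14 fell (32.6%, where 11.9% of all tested genes fell). Those that rose included the peptidases Ctsc and Ctsd and the growth factor precursor Grn, and those that fell included Lamp2, the GM2 activator Gm2a, the peptidase Tpp1 and the ATG8 gene Gabarapl1. The median change of the set was -0.30, beside 0.12 over all tested genes, and 28 of 43 changes were negative. Libraries of the 2 groups did not overlap for 28 genes, beside 54.6% of all tested genes. In bulk tissue, fewer cells of a type and less RNA per cell cannot be told apart.

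The split depends on how libraries are scaled. With quantile normalization 3 of the 43 genes rose and 18 fell, and with trimmed-mean scaling 2 rose and 18 fell. The median change of all tested genes was -0.02 with quantile normalization, against 0.12 without it. The scalings brought the calls over all genes to 2205 higher and 2172 lower (50.4% higher) with quantile normalization and to 2257 higher and 2204 lower (50.6% higher) with trimmed-mean scaling. Without them the calls were 3125 higher and 1483 lower (67.8% higher). Leaving out 1 library at a time, 1 of the 7 rises (Ctsc) and 7 of the 14 falls (Tpp1, Man2b1, Ids, Gm2a, Smpd1, Lamp2 and Gabarapl1) were called every time. Without WT sham 1, 4 genes rose and 9 fell, beside 18.1% and 7.79% of all tested genes. Without WT sham 2, 1 rose and 11 fell (17.6% and 7.27% of all tested genes). Without WT sham 3, 1 rose and 9 fell (17.5% and 7.34% of all). Without WT IRI 13, 4 rose and 8 fell (19.1% and 7.87% of all). Without WT IRI 24, 4 rose and 13 fell (21.7% and 9.24% of all).

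Markers of the cells that make up the kidney moved in the same comparison, and their part in the lysosomal changes was not tested. Of 15 proximal tubule genes 14 fell in WT IRI, and their summed level was 2552 to 6674 FPKM in WT IRI libraries and 10905 to 11162 FPKM in WT sham, with no gene listed at 0. Of 20 macrophage genes 9 rose, with a summed level of 209 to 429 FPKM in WT IRI and 148 to 170 FPKM in WT sham, and Itgam and Ms4a7 were listed at 0 in at least 1 library. All 15 tubular injury genes rose, with sums of 5506 to 8830 FPKM in WT IRI and 1355 to 1444 FPKM in WT sham. All 3 tested neutrophil genes rose (median change 1.73), with sums of 10 to 22.1 FPKM in WT IRI and 0.807 to 3.78 FPKM in WT sham. Retnlg was listed at 0 in at least 1 library, and the other 5 genes of that list (Csf3r, Cxcr2, Mpo, Ly6g and Ngp) were not in the table. Of 10 fibroblast genes 5 rose, of 10 endothelial genes 4 fell, of 6 podocyte genes 2 fell, and of 12 genes of the loop of Henle and distal nephron 4 fell and 1 rose. Of 2 tested joint tissue genes 1 fell, and neither of 2 tested T, B and NK cell genes passed. These counts stand beside 25.1% of all tested genes that rose and 11.9% that fell. Without WT IRI 13, 9 proximal tubule genes fell, 4 macrophage genes and all 15 injury genes rose, and no loop or distal nephron gene fell. In that fit 19.1% of all tested genes rose and 7.87% fell. With quantile normalization 13 proximal tubule genes fell, and 5 macrophage genes and all 15 injury genes rose, beside 17.7% and 17.4% of all tested genes that rose and fell.

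Among the 8 peptidases, 3 rose (37.5%) and 1 fell (12.5%) in WT IRI. Of all tested genes 25.1% rose and 11.9% fell, and these shares stand beside the counts of the other roles too. Ctsc (cathepsin C, which activates serine proteases of immune cells, at chr7:88278085-88310888 in GRCm38) was at 22.6, 27.9 and 26.8 FPKM in WT IRI and at 14.7, 13.5 and 13.1 FPKM in WT sham, with no overlap. It rose by 0.85 on the log2 scale (SE 0.13, adjusted p = 0.00120) and held with any 1 library left out (0.80 to 0.94, highest adjusted p 0.00775). Ctsd (cathepsin D, the main aspartic protease of the lysosome, at chr7:142375911-142388038) was at 436, 525 and 365 FPKM in WT IRI and at 278, 263 and 273 FPKM in WT sham. All 3 injured libraries lay above the sham range, and Ctsd rose by 0.69 (SE 0.19, adjusted p = 0.0188). It missed the threshold without WT sham 2, WT sham 3 or WT IRI 24 (lowest change 0.55, highest adjusted p 0.0654) and with quantile normalization.

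Ctsz (cathepsin X, a carboxypeptidase, at chr2:174427493-174439039) was at 196, 186 and 171 FPKM in WT IRI and at 142, 133 and 132 FPKM in WT sham. The groups did not overlap, and Ctsz rose by 0.44 (SE 0.12, adjusted p = 0.0150), a call that was lost without WT sham 2 or WT sham 3 (highest adjusted p 0.0561) and with trimmed-mean scaling. Tpp1 (tripeptidyl peptidase, which removes tripeptides from protein ends, at chr7:105744811-105752235) went the other way. It was at 8.64, 15.9 and 16.3 FPKM in WT IRI and at 26.3, 28.7 and 27.9 FPKM in WT sham, without overlap, and fell by 1.02 (SE 0.22, adjusted p = 0.00598). The 4 peptidases that did not pass the test were Ctsa (-0.30), Ctsb (0.10), Ctsh (-0.55) and Ctsl (-0.27). Ctsh, an aminopeptidase, varied most within groups, from 2.96 to 22 FPKM in WT IRI and from 12.3 to 30.2 FPKM in WT sham.

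Of the 11 glycosidases, which cut sugars from glycoproteins and glycolipids, 5 fell (45.5%) and 1 rose (9.09%). Gla (alpha-galactosidase A, which removes terminal galactose from glycolipids, at chrX:134588149-134601125) was at 3.78, 4.02 and 3.49 FPKM in WT IRI and at 2.54, 2.21 and 2.5 FPKM in WT sham. The groups did not overlap and Gla rose by 0.48 (SE 0.15, adjusted p = 0.0306), but it missed the threshold without WT sham 1, 2 or 3 or without WT IRI 13 or 24 (highest adjusted p 0.0997) and with quantile or trimmed-mean scaling. Man2b1 (the lysosomal alpha-mannosidase, at chr8:85083270-85098282) was at 27.5, 28.6 and 33.7 FPKM in WT IRI and at 48.1, 49 and 51.8 FPKM in WT sham. All injured libraries lay below the sham range and Man2b1 fell by 0.71 (SE 0.15, adjusted p = 0.00530), with a highest adjusted p of 0.0239 when 1 library was left out.

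The other 4 glycosidases that fell were Neu1, Gaa, Fuca1 and Idua. Neu1 (the lysosomal sialidase) was at 44.3, 49.2 and 85.3 FPKM in WT IRI and at 113, 121 and 158 FPKM in WT sham, and fell by 1.16 (adjusted p = 0.0137), a call lost without WT sham 3 or WT IRI 13 (highest adjusted p 0.0550). Gaa (acid alpha-glucosidase, which degrades glycogen) fell by 0.52 (adjusted p = 0.0187), a call lost without WT sham 1, WT sham 2 or WT IRI 13 (highest 0.0640) and with its transcript of highest mean alone. Fuca1 (alpha-fucosidase) fell by 0.61 (adjusted p = 0.0178), a call lost without WT sham 1, WT sham 3 or WT IRI 13 (changes of -0.79 to -0.44, highest adjusted p 0.0559). Idua (alpha-iduronidase) was below 0.5 FPKM in every WT IRI library, at 0.458, 0.290 and 0.497, and at 3.02, 0.880 and 1.33 FPKM in WT sham. Its fall of 0.88 (adjusted p = 0.0422) was lost without WT sham 1 or 3, CKO sham 3, CKO IRI 7 or any 1 of the WT IRI libraries (changes of -1.12 to -0.57, highest adjusted p 0.154). It was also lost with only the groups compared, with array weights (libraries weighted by quality), with its transcript of highest mean alone, and without WT IRI 13 and CKO sham 1 together. Not past the threshold were Naglu (-0.45, adjusted p = 0.0592), Glb1 (-0.45), Manba (-0.07), Hexa (0.08) and Gusb (0.02).

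Of the 4 sulfatases, which strip sulfate from glycosaminoglycans and sulfatides, 2 fell (50%) and none passed the test in the other direction. Ids (iduronate 2-sulfatase, at chrX:70343069-70365084) was at 3.90, 8.75 and 8.32 FPKM in WT IRI and at 13.3, 15.7 and 13.7 FPKM in WT sham, without overlap, and fell by 0.99 (SE 0.23, adjusted p = 0.00790). Arsb (arylsulfatase B) was at 13.4, 26.0 and 26.4 FPKM in WT IRI and at 49.7, 49.6 and 52.3 FPKM in WT sham, without overlap. It fell by 1.23 (adjusted p = 0.0138), and without WT IRI 13 by 0.92 with an adjusted p of 0.0518. Arsa (-0.15) and Sgsh (-0.23) did not pass the test.

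Among the 9 genes of lipid breakdown and sterol transport, 3 fell (33.3%) and 1 rose (11.1%). Gm2a (the activator that presents ganglioside GM2 to hexosaminidase, at chr11:55098115-55113029) was at 29.5, 44.0 and 80.6 FPKM in WT IRI and at 117, 116 and 123 FPKM in WT sham. The injured libraries spread over a wide range below the sham range, and Gm2a fell by 1.31 (SE 0.28, adjusted p = 0.00567), or by 1.69 at most and 0.98 at least with 1 library left out. Smpd1 (acid sphingomyelinase, at chr7:105554360-105558389) was at 35.6, 31.0 and 46.1 FPKM in WT IRI and at 63.8, 59.1 and 64.5 FPKM in WT sham, without overlap. Smpd1 fell by 0.74 (SE 0.17, adjusted p = 0.00715).

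Lipa (lysosomal acid lipase, which frees cholesterol from its esters) was at 38.0, 66.2 and 67.6 FPKM in WT IRI and at 132, 130 and 127 FPKM in WT sham. The gap between the groups was wide, but the SE was 0.41, and the fall of 1.21 (adjusted p = 0.0413) was lost without any 1 of the WT sham libraries, WT IRI 13, WT IRI 24 or CKO IRI 7 (highest adjusted p 0.146) and with its transcript of highest mean alone. Grn (progranulin, the precursor of granulins that act in the lysosome, at chr11:102430315-102437048) was at 91.3, 103 and 89.0 FPKM in WT IRI and at 70.7, 65.1 and 62.3 FPKM in WT sham. The groups did not overlap and Grn rose by 0.51 (SE 0.14, adjusted p = 0.0193), a call lost without WT sham 2, WT sham 3 or WT IRI 24 (highest adjusted p 0.0699), with trimmed-mean scaling and with its transcript of highest mean alone. Asah1 (acid ceramidase, -0.89, adjusted p = 0.0706), Ppt1 (-1.81, adjusted p = 0.0588), Npc1 (0.38, adjusted p = 0.0802), Psap (-0.33) and Npc2 (0.04) were not past the threshold. Ppt1 (palmitoyl-protein thioesterase) had the largest size of change in the set, but its libraries ran from 7.49 to 23.1 FPKM in WT IRI and from 6.98 to 42.5 FPKM in CKO IRI, and its SE was 0.68.

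Of the 6 membrane proteins, 2 fell (33.3%) and 1 rose (16.7%). Lamp2 (which also serves chaperone-mediated autophagy and autophagosome fusion, at chrX:38401357-38456454) was at 105, 178 and 173 FPKM in WT IRI and at 281, 283 and 282 FPKM in WT sham. All injured libraries lay far below the tight sham range, and Lamp2 fell by 0.92 (SE 0.19, adjusted p = 0.00419), with a highest adjusted p of 0.0176 when 1 library was left out. Its relative Lamp1, at chr8:13159161-13175338, was at 257, 450 and 460 FPKM in WT IRI and at 552, 556 and 544 FPKM in WT sham, without overlap, and was not past the threshold (-0.55, SE 0.21, adjusted p = 0.0630).

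Cd63, a tetraspanin of late endosomes and lysosomes at chr10:128900989-128912822, was at 1005, 736 and 725 FPKM in WT IRI and at 657, 594 and 600 FPKM in WT sham. The rise of 0.40 (SE 0.14, adjusted p = 0.0458) was near the threshold and passed in only 3 of the 12 fits with 1 library left out, those without CKO sham 1, WT IRI 24 or WT IRI 49 (range 0.24 to 0.48, highest adjusted p 0.127), and in neither quantile nor trimmed-mean scaling. Mcoln1 (the calcium channel TRPML1) was at 17.8, 23.7 and 21.5 FPKM in WT IRI and at 28.1, 26.8 and 27.8 FPKM in WT sham, without overlap. It fell by 0.38 (adjusted p = 0.0299), a call lost without any 1 of the WT sham libraries or WT IRI 13 (changes of -0.47 to -0.28, highest adjusted p 0.0868) and with only the 2 groups fitted. Scarb2 (0.23) and Cln3 (0.19) were not past the threshold.

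The transcription factors gave no shared direction. Tfeb, at chr17:47737030-47792419, was at 10.3, 20.1 and 21 FPKM in WT IRI and at 18.5, 15 and 16 FPKM in WT sham, so that the injured libraries lay on both sides of the sham range (adjusted p = 0.992, SE 0.26). Tfe3, at chrX:7762560-7775202, was at 11.6, 6.81 and 9.21 FPKM in WT IRI and at 3.37, 6.14 and 5.53 FPKM in WT sham. Tfe3 rose by 0.77 (SE 0.27, adjusted p = 0.0472), but passed in only 3 of the 12 fits with 1 library left out, those without CKO sham 1, WT IRI 24 or CKO IRI 29 (range 0.55 to 0.95, highest adjusted p 0.170), and in neither quantile nor trimmed-mean scaling. With its transcript of highest mean alone the change was -0.10. The level of these RNAs says nothing of where the proteins are in the cell.

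Of the 3 autophagy genes, 1 fell. Gabarapl1 (an ATG8 protein of the autophagosome, at chr6:129533160-129542346) was at 116, 170 and 189 FPKM in WT IRI and at 336, 351 and 335 FPKM in WT sham, without overlap, and fell by 1.13 (SE 0.28, adjusted p = 0.0102). Sqstm1 (p62, at chr11:50199366-50210827) was at 204, 221 and 171 FPKM in WT IRI and at 193, 185 and 203 FPKM in WT sham. The groups overlapped and the difference was 0.03 (SE 0.15, adjusted p = 0.894). Map1lc3b (LC3B, at chr8:121590361-121598760) was at 19.8, 79.3 and 31.7 FPKM in WT IRI and at 40.6, 42.3 and 41.1 FPKM in WT sham, so that 1 injured library lay far above and 2 lay below the sham range (-0.16, SE 0.42, adjusted p = 0.790).

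**Figure D3:**
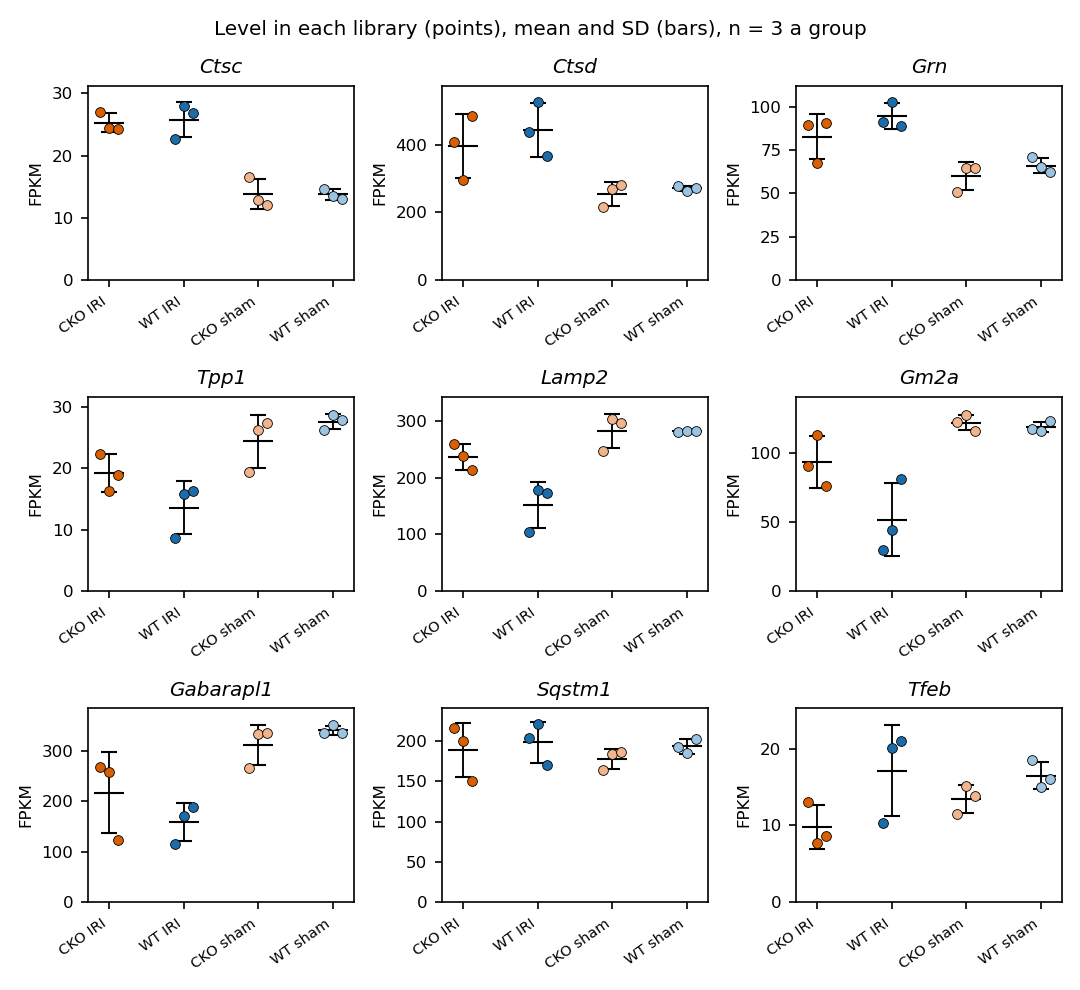
Level in FPKM of 9 genes in each library (points), with the group mean and SD (bars, n = 3 a group), for CKO IRI, WT IRI, CKO sham and WT sham. Ctsc, Ctsd and Grn lie higher and Tpp1, Lamp2, Gm2a and Gabarapl1 lower in WT IRI than in WT sham, while Sqstm1 and Tfeb overlap.

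Likeness to Tfeb and Sqstm1 across libraries was described by Pearson's r of log2(FPKM + 1) over the 12 libraries, which share groups and scaling. The genes most like Tfeb were Ctsa (r = 0.70), Gaa (0.57) and Cln3 (0.56). Those most like Sqstm1 were Arsa (0.52), Map1lc3b (0.39) and Ppt1 (0.37). These are the highest values among all other genes of the set, and they were not tested.

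Other genes of the lysosome and of autophagy, taken from 7 lists that hold none of the 43, also had more falls than rises in WT IRI on each list. In all, 41 of 187 tested genes fell (21.9%) and 17 rose (9.09%), beside 11.9% and 25.1% of all tested genes. Under quantile and trimmed-mean scaling more falls than rises were called on all 7 lists, with 7 and 11 falls among V-ATPase genes. Of all tested genes 17.7% rose and 17.4% fell with quantile normalization, and 18.1% and 17.7% with trimmed-mean scaling. With array weights sorting genes had 2 rises and 2 falls, and the other lists had more falls (28.4% and 15.7% of all tested genes). Without WT IRI 13 falls outnumbered rises on 4 lists. In that fit sorting genes had 1 rise and no fall, other membrane proteins 2 and 2, and core autophagy genes 1 and 1 (19.1% and 7.87% of all tested genes). Of 22 subunits and accessory proteins of the V-ATPase 7 fell and none passed the test in the other direction, led by Atp6v1a (a subunit of the catalytic sector, -1.28, adjusted p = 9.10e-04), Atp6v0a4 (a membrane subunit of the kidney, -1.17, adjusted p = 0.00817, but 0.21 with its transcript of highest mean alone) and Atp6ap1 (an accessory protein, -0.95, adjusted p = 0.0137, or 0.0514 without WT sham 2). Of 31 other hydrolases and activators 10 fell and 4 rose, and the 3 of smallest p, Fuca2 (a fucosidase, -0.89), Galc (galactosylceramidase, -0.79) and Smpdl3a (-1.81), all fell. Of 29 other membrane proteins 6 fell and 3 rose. Litaf, an endosomal and lysosomal membrane protein induced by lipopolysaccharide, rose by 1.94 (adjusted p = 5.65e-04), while Lmbrd1, which acts in cobalamin export, fell by 0.58 and the sialomucin Cd164 fell by 0.93. Of the 7 genes on these lists that rose as hydrolases or membrane proteins, Ctss, Cd68 and Laptm5 are also on the macrophage list.

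Lists of sorting and autophagy genes were mixed. Of 19 genes of mannose 6-phosphate sorting 3 fell and 2 rose, with Ap1s1 (a clathrin adaptor subunit) up by 1.05, Gga1 (another adaptor) up by 0.36 and Gnptg (a subunit of the enzyme that starts the tag) at -0.39. Gga1 missed the threshold with both other scalings and without any 1 of the WT sham libraries, WT IRI 13 or WT IRI 24 (highest adjusted p 0.0801), and Gnptg without any 1 of the WT sham libraries or WT IRI 13 (0.0768). Of 39 core autophagy genes 4 fell (10.3%) and 2 rose (5.13%), beside 11.9% and 25.1% of all tested genes. Atg101, a part of the starter complex, rose by 0.96, while Snap29, which acts in fusion with the lysosome, fell by 0.54 and the starter kinase Ulk2 fell by 0.42, a call lost without WT sham 1, WT sham 2, WT IRI 13 or WT IRI 24 (highest adjusted p 0.0730). Of 18 selective autophagy genes 6 fell and 3 rose. The mitophagy kinase Pink1 fell by 0.88, and Phb2 and the receptor Optn rose by 0.54 and 0.64. Of 29 genes of mTORC1 and TFEB control 5 fell and 3 rose, with Rragb at -0.55, Lamtor5 at -0.70 and Mlst8 at 0.44, which are parts of the machinery that brings mTORC1 to the lysosome or of mTORC1 itself. Mlst8 missed the threshold with both other scalings and without WT sham 1, WT sham 3 or WT IRI 24 (highest adjusted p 0.0547), and was at -0.56 with its transcript of highest mean alone.

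**Figure D4:**
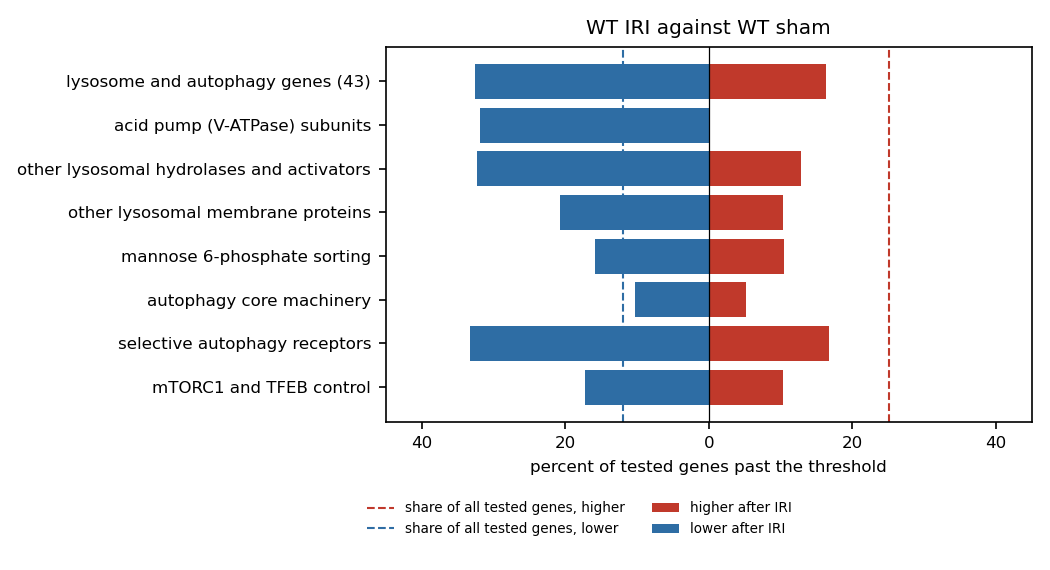
Percent of tested genes called higher (red, to the right) and lower (blue, to the left) in WT IRI against WT sham, for the 43 genes and for 7 other lists, with dashed lines at the shares of all tested genes (25.1% higher and 11.9% lower). Every list lies below the dashed line for higher calls, and all but the autophagy core machinery pass the dashed line for lower calls.

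In CKO kidneys, 1 of the 43 genes passed the test after injury, where 5.70% of all tested genes rose and 1.48% fell in CKO IRI against CKO sham. It was Ctsc, at 27.0, 24.5 and 24.3 FPKM in CKO IRI and at 16.6, 12.9 and 12.1 FPKM in CKO sham, without overlap. Ctsc rose by 0.83 (SE 0.13, adjusted p = 0.00417) and kept its call with each library left out (0.75 to 0.96) and under each other setting tried. The median change of the set was 0.03, beside 0.08 over all tested genes. At an unadjusted p under 0.05 there were 4 of the 43 and 3000 of all 12469 tested genes. Libraries of the 2 groups did not overlap for 8 genes, beside 31.6% of all tested genes. Calls over all genes were 711 higher and 185 lower (79.4% higher), or 514 and 296 (63.5%) with quantile normalization and 551 and 257 (68.2%) with trimmed-mean scaling, and with both the set kept 1 call.

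The other genes that rose in WT IRI had values in CKO kidneys that did not pass the test. Ctsd was at 409, 295 and 483 FPKM in CKO IRI and at 215, 269 and 281 FPKM in CKO sham (0.61, SE 0.19, adjusted p = 0.0829). Grn was at 89.5, 67.8 and 90.7 FPKM in CKO IRI and at 50.6, 64.5 and 64.5 FPKM in CKO sham (0.46, SE 0.14, adjusted p = 0.0843). Both pairs of groups were without overlap, as was Gla (0.44, adjusted p = 0.104), and without CKO IRI 15 all 3 passed, Ctsd at 0.81 (adjusted p = 0.0170), Grn at 0.59 (0.0233) and Gla at 0.56 (0.0440). In that fit 8.70% of all tested genes rose and 4 of the 43 (9.30%). Ctsz (-0.01), Cd63 (0.03) and Tfe3 (0.31) overlapped between the groups.

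Of the genes that fell in WT IRI, none passed in CKO IRI. The negative changes of smallest p were those of Man2b1, at 38.9, 31.7 and 30.4 FPKM in CKO IRI and at 34.1, 47.4 and 47.5 FPKM in CKO sham (-0.34, SE 0.15, adjusted p = 0.208), and of Gabarapl1, at 268, 259 and 124 FPKM in CKO IRI and at 265, 333 and 336 FPKM in CKO sham (-0.59, SE 0.28, adjusted p = 0.222). In both genes 1 library of CKO sham lay inside the injured range. Lamp2 was at 259, 239 and 213 FPKM in CKO IRI and at 248, 303 and 297 FPKM in CKO sham (-0.25, adjusted p = 0.449). Over the 14 genes that fell in WT IRI the median change was -0.26 in CKO kidneys and -0.96 in WT kidneys, and over the 7 that rose it was 0.44 and 0.51. These genes were chosen by their WT change, which favours larger values there.

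Of the remaining named genes, Lamp1 was at 535, 465 and 513 FPKM in CKO IRI and at 409, 559 and 549 FPKM in CKO sham (0.01, adjusted p = 0.986). Tfeb was at 13.1, 7.65 and 8.64 FPKM in CKO IRI and at 11.5, 15.1 and 13.8 FPKM in CKO sham (-0.44, SE 0.26, adjusted p = 0.329). The groups overlapped in both genes. Tfe3 was at 5.93, 5.90 and 10.7 FPKM in CKO IRI and at 4.38, 6.32 and 6.55 FPKM in CKO sham (0.31, SE 0.27, adjusted p = 0.532). Sqstm1 was at 216, 200 and 151 FPKM in CKO IRI and at 164, 184 and 187 FPKM in CKO sham (0.07, adjusted p = 0.804). Map1lc3b was at 40.5, 74.5 and 37.7 FPKM in CKO IRI and at 27.9, 39.4 and 41.2 FPKM in CKO sham (0.43, SE 0.42, adjusted p = 0.566). These 3 genes overlapped between the groups as well.

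On the 7 other lists, 3 of 187 tested genes rose (1.60%) and 2 fell (1.07%), beside 5.70% and 1.48% of all tested genes. Litaf (1.26), Vmp1 (0.70), which acts in autophagosome formation, and Ywhaz (0.74), a 14-3-3 protein, rose, and Dpp7 (-1.22), a dipeptidyl peptidase, and Pink1 (-0.75) fell. Vmp1, Dpp7 and Pink1 each passed in only 4 of the 12 fits with 1 library left out, those without CKO IRI 15 or any 1 of the WT IRI libraries (highest adjusted p 0.161, 0.122 and 0.116). Vmp1 was also lost with quantile and trimmed-mean scaling, and Pink1 with quantile normalization. Litaf missed the threshold without CKO sham 2 or 3 or CKO IRI 7 or 29 (0.0751), and Ywhaz without CKO sham 1 or 3 or CKO IRI 7 or 29 (0.0989). No V-ATPase gene passed, and Atp6v1a was at -0.05 (SE 0.19, adjusted p = 0.900).

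Marker lists moved in this comparison too, and their part in these values was not tested. Of 15 proximal tubule genes 1 fell (Slc5a2), with a summed level of 4004 to 9127 FPKM in CKO IRI and 11343 to 12531 FPKM in CKO sham. Of 20 macrophage genes 1 rose (Cd14), with sums of 216 to 315 FPKM in CKO IRI and 189 to 275 FPKM in CKO sham, which overlapped. Of 15 tubular injury genes 10 rose, of 3 tested neutrophil genes 2 rose (median change 1.37), of 10 fibroblast genes 4 rose, of 10 endothelial genes 3 fell and of 6 podocyte genes 1 fell. No gene of the loop of Henle and distal nephron passed. Of all tested genes 5.70% rose and 1.48% fell. The median change of the endothelial genes was -1.01 in CKO IRI against CKO sham and -0.67 in WT IRI against WT sham. With array weights 9 of the 15 proximal tubule genes fell, all 15 injury genes rose, 4 macrophage genes rose and 8 of the 10 endothelial genes fell in CKO IRI, beside 18.2% of all tested genes that rose and 10.2% that fell. In the main fit, no gene on the marker lists passed the test of whether its injury change differed between genotypes, beside 0.0160% of all tested genes. The lists as sets were not tested for such a difference.

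**Figure D5:**
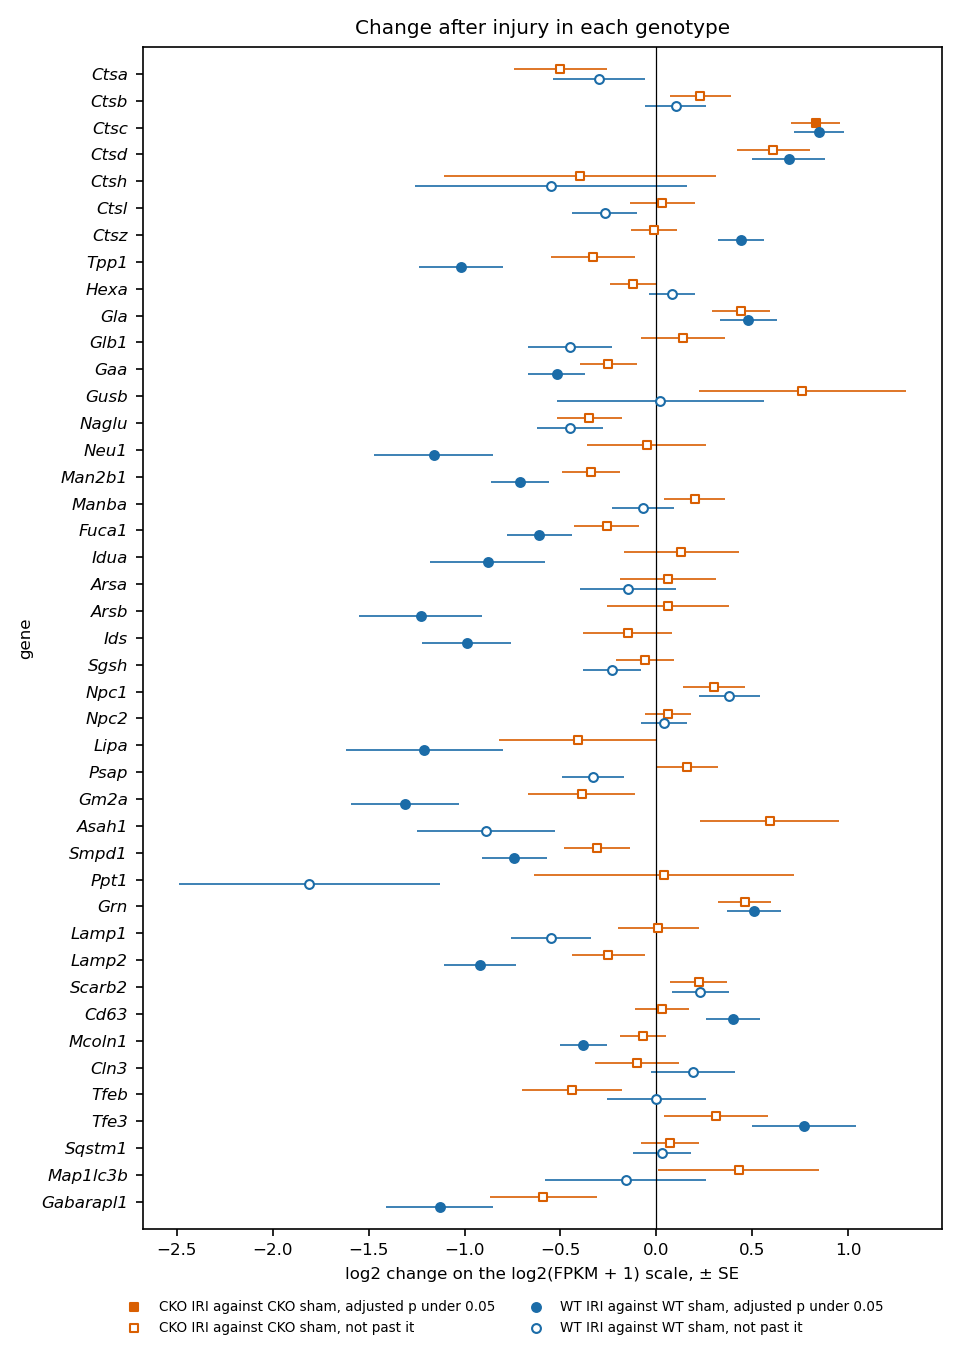
Log2 change ± SE on the log2(FPKM + 1) scale of each of the 43 genes in CKO IRI against CKO sham (squares) and in WT IRI against WT sham (circles), filled where the adjusted p was under 0.05. There are 21 filled circles, 7 to the right and 14 to the left of 0, and 1 filled square, that of Ctsc.

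Without injury, genotype made no difference that passed the test. In CKO sham against WT sham 0 of 43 genes were called by limma, and 0% of all 12469 tested genes. At an unadjusted p under 0.05 the counts were 0 of the 43 and 816 of all tested genes, and weighting libraries by their quality called 0 of the 43 as well. The median change of the set was -0.14, beside 0.01, and 31 of 43 changes were negative. Libraries did not overlap for 12 genes, beside 28.4% of all tested genes. The smallest p-values among negative changes were those of Mcoln1, at 21.2, 22.6 and 25.8 FPKM in CKO sham and at 28.1, 26.8 and 27.8 FPKM in WT sham (-0.24, SE 0.12, adjusted p = 0.755), and of Manba, the beta-mannosidase, at 19.2, 24.5 and 23.7 FPKM in CKO sham and at 26.2, 28 and 29.2 FPKM in WT sham (-0.30, SE 0.16, adjusted p = 0.755). Among positive changes they were those of Ctsz, at 145, 148 and 170 FPKM in CKO sham and at 142, 133 and 132 FPKM in WT sham (0.18, SE 0.12, adjusted p = 0.760), and of Cd63, at 767, 687 and 685 FPKM in CKO sham and at 657, 594 and 600 FPKM in WT sham (0.21, SE 0.14, adjusted p = 0.773). None of these 4 overlapped between the groups. Tfeb (-0.28), Tfe3 (0.18), Lamp1 (-0.14), Sqstm1 (-0.12) and Map1lc3b (-0.21) did overlap, with adjusted p-values of 0.841, 0.901, 0.902, 0.880 and 0.935.

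After injury, 0 of the 43 genes were called by limma in CKO IRI against WT IRI, where 0.0401% of all tested genes were called. At an unadjusted p under 0.05 there were 10 of the 43 and 2609 of all tested genes. The median difference of the set was 0.14, beside -0.05, and libraries did not overlap for 7 genes, beside 18.6% of all tested genes. Lamp2 was at 259, 239 and 213 FPKM in CKO IRI and at 105, 178 and 173 FPKM in WT IRI, without overlap (0.67, SE 0.19, adjusted p = 0.126). Gm2a was at 90.5, 113 and 76.1 FPKM in CKO IRI and at 29.5, 44.0 and 80.6 FPKM in WT IRI (0.95, SE 0.28, adjusted p = 0.139), where WT IRI 49 lay inside the CKO range.

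WT IRI 49 moved the calls in this comparison. Without it 4 genes passed, Gm2a at 1.33 (adjusted p = 0.00761), Lamp2 at 0.78 (0.0369), Asah1 at 1.32 (0.0425) and the beta-galactosidase Glb1 at 0.74 (0.0440), and weighting libraries by quality called the same 4. These settings raised the calls over all genes as well. Without WT IRI 49 5.25% of all tested genes were called higher and 6.01% lower, and with array weights 2.57% and 3.22%, beside 9.30% and 0% of the 43. Asah1 was at 32.1, 21.8 and 21.3 FPKM in CKO IRI and at 7.94, 10.7 and 18.2 FPKM in WT IRI, without overlap (1.02, SE 0.36, adjusted p = 0.162). In the other direction Tfeb was at 13.1, 7.65 and 8.64 FPKM in CKO IRI and at 10.3, 20.1 and 21 FPKM in WT IRI (-0.72, SE 0.26, adjusted p = 0.172), and Ctsz at 147, 139 and 173 FPKM in CKO IRI and at 196, 186 and 171 FPKM in WT IRI (-0.27, SE 0.12, adjusted p = 0.227), with 1 library of overlap in each. Lamp1 (0.42, adjusted p = 0.278), Tfe3 (-0.28, 0.568), Sqstm1 (-0.08, 0.790) and Map1lc3b (0.38, 0.614) were not past the threshold. Summed proximal tubule levels were 4004 to 9127 FPKM in CKO IRI and 2552 to 6674 FPKM in WT IRI, and their part in these differences was not tested.

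The test of whether the injury change differed between genotypes (the genotype by injury interaction, CKO change minus WT change) called 0 of the 43 genes, beside 0.0160% of all tested genes. At an unadjusted p under 0.05 there were 8 of the 43 and 2233 of all tested genes. The smallest p-values were those of Asah1 (1.48, SE 0.50, adjusted p = 0.211) and Arsb (1.29, SE 0.46, adjusted p = 0.215) on the positive side, and of Ctsz (-0.45, SE 0.17, adjusted p = 0.221) and Cd63 (-0.37, SE 0.20, adjusted p = 0.339) on the negative side. Tfeb (-0.44), Tfe3 (-0.46), Lamp1 (0.56), Sqstm1 (0.04) and Map1lc3b (0.59) had adjusted p-values of 0.523, 0.522, 0.338, 0.923 and 0.594. Gm2a passed without WT IRI 49 (1.30, adjusted p = 0.0335), where 4.68% of all tested genes were called and 2.33% of the 43. With array weights Gm2a, Ctsz and Asah1 passed, 6.98% of the 43, beside 6.74% of all tested genes. The median of the set was 0.28, beside -0.06 over all tested genes, and 30 of 43 values were positive. The difference in the number of genes called between WT and CKO kidneys was therefore not matched by calls in the test of the difference itself.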

How the data were processed

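RNA-seq of kidney from 12 libraries in 4 groups of 3 was analysed. The authors deposited 1 table of 25790 transcripts, read here as FPKM, since its header names no unit. HISAT2 2.1.0, StringTie and cutadapt are named in the submitters' processing notes. The notes name GRCh38, a human build, while the transcript IDs are mouse. Strand setting, annotation and depth are not given in the sources used here, so counting error is unknown. Each deposited row averages at least 0.50 in at least 1 group. A value listed at 0 may be a failed estimate.

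Transcript IDs were matched to GENCODE M21 (GRCm38). The 50 unmatched transcripts held at most 0.10% of any library and were left out, and values were summed per gene. Overlapping genes can share reads.

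Genes at 1 FPKM or more in at least 3 libraries (12469) were tested on log2(deposited FPKM + 1) with limma 3.58.1 in R 4.3.3, with 1 mean per group, a spread shared by the 4 groups, a trend of variance with level, and Benjamini-Hochberg adjustment over all tested genes. Fold changes on this scale understate those of low genes. The code was tested on simulated data. Single values were compared by two-sided exact permutation.

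The 43 genes and all lists were chosen with earlier results of these data known. The genes named are, in each comparison, up to 6 called genes of smallest p in each direction (2 where none was called), and Tfeb, Tfe3, Lamp1, Sqstm1 and Map1lc3b. Library values are given for the groups of the comparison that named a gene, except for the interaction, and for every group in the 5 genes last named. Further genes were added after their values were seen. For each list up to 3 called genes of smallest p in WT IRI are named, and genes called in CKO IRI. Alternatives were other pseudocounts (0.1 and 0.5), no filter or one of 5 FPKM, quantile and trimmed-mean scaling, only the groups compared, array weights (libraries weighted by quality), the transcript of highest mean, a replicate block, and leaving out each library.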

Additional observations from a re-analysis of the deposited data

How the results depend on the processing

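Leaving out 1 library at a time gave 10 to 25 genes called in WT IRI against WT sham (1 to 7 higher and 8 to 18 lower), 1 to 4 in CKO IRI against CKO sham, 0 to 4 in CKO IRI against WT IRI, and 0 to 1 in the interaction. In the same order, the share of all tested genes called ran from 24.8% to 42.2%, 3.18% to 11.7%, 0.0161% to 11.3% and 0.0161% to 4.68%. Genes called higher in WT IRI against WT sham numbered 3 with quantile normalization, 2 with trimmed-mean scaling and 4 without WT IRI 13 and CKO sham 1 together, a setting chosen after seeing the data. Of all tested genes 17.7%, 18.1% and 20.3% were called higher in these fits. Array weights called 7 genes in CKO IRI against CKO sham (Ctsc, Ctsd, Grn and Gla higher, Naglu, Fuca1 and Man2b1 lower, 9.30% and 6.98% of the 43, beside 18.2% and 10.2% of all tested genes), 4 in CKO IRI against WT IRI and 3 in the interaction. Fitting only the groups compared called 7 higher and 4 lower of all genes in CKO sham against WT sham, and array weights 56 and 68, none of them among the 43 genes. It cannot give the interaction.

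Of 262 alternative values of called genes, 224 kept direction and call, 37 lost the call and 1 turned. These values cover each other setting but, for leaving out 1 library, only the lowest and the highest change of each gene. Calls lost in the remaining fits with 1 library left out are not counted among them. Signs turned for Tfe3 with its transcript of highest mean (-0.10 in WT IRI, -0.26 in CKO IRI, 0.11 in CKO IRI against WT IRI). In WT IRI they turned for Tfeb (0.16 with array weights, 0.31 without WT IRI 13 and CKO sham 1, and -0.17 to 0.31 with 1 library left out), Sqstm1 (-0.12 with trimmed-mean scaling, -0.13 with its highest transcript, -0.05 to 0.13 with 1 left out) and Map1lc3b (0.37 with array weights, 0.28 without the same 2 libraries, -0.70 to 0.28 with 1 left out). In CKO IRI they turned for Lamp1 (-0.09 with trimmed-mean scaling, -0.05 with array weights, -0.14 without the same 2 libraries, -0.14 to 0.09 with 1 left out) and Sqstm1 (-0.02 with trimmed-mean scaling, -0.13 with its highest transcript, -0.03 to 0.23 with 1 left out). In CKO IRI against WT IRI they turned for Sqstm1 (-0.18 to 0.08 with 1 left out) and Map1lc3b (-0.29 with array weights, -0.05 without the same 2 libraries, -0.05 to 0.92 with 1 left out). The cause was not tested.

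The sham groups share replicate numbers 1 to 3. With the replicate block 0 of the 43 genes and 0 of all genes were called in CKO sham against WT sham, as without it. Deviations from the group means of same-numbered libraries correlated at 0.00355, -0.0314 and -0.00247. Those of differently numbered libraries correlated at -0.0145 to 0.0224. Libraries of the same number thus shared no more than others did. The labels state no pairing, and these correlations cannot show how the samples were matched. IRI libraries share no numbers. Depth is unknown, so how far it limits the low genes Gla, Arsa and Idua is not known.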

Other observations

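Transcripts of single genes were looked at after the gene values were seen, and are given as estimates with no test beyond those named. Lamp2-202 made up 25%, 24.1% and 35.7% of Lamp2 FPKM in CKO IRI, 33.9%, 26.9% and 34.9% in WT IRI, 23.1%, 37.8% and 37.8% in CKO sham, and 39.4%, 40.5% and 41.2% in WT sham. WT IRI lay below WT sham without overlap (exact permutation p = 0.10, the smallest that 3 against 3 allows), CKO IRI and CKO sham overlapped (exact permutation p = 0.400), and CKO sham lay below WT sham (exact permutation p = 0.10).

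In Sqstm1, Sgsh, Idua and Tfe3 a transcript was highest in 1 library and at or near 0 in the others. Sqstm1-205 was at 73.9 FPKM in CKO IRI 29 and listed at 0 in the other 11 libraries, and Sqstm1-202 was at 61.3 FPKM in that library and at 105 to 150 FPKM elsewhere. Sgsh-202 was at 3.85 FPKM in CKO IRI 7 and listed at 0 in the other 11, where Sgsh-201 was at 0.192 FPKM in CKO IRI 7. Idua-203 was at 1.72 FPKM in WT sham 1, the highest Idua library, and listed at 0 in the other 11. Tfe3-203 was at 6.86 FPKM in WT IRI 49 and below 0.01 FPKM elsewhere. Ppt1-201, the main Ppt1 transcript, was at 36.4, 37.5 and 1.42 FPKM in CKO IRI, 20.6, 4.68 and 0.821 in WT IRI, 36.4, 4.73 and 24.7 in CKO sham, and 40.7, 38.4 and 42.8 in WT sham. It ranged widely within each group but WT sham. How reads were shared among transcripts was not tested.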
